A study of Mus musculus with 6 samples.

Results

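The antigen presentation genes examined here are the 10 rows of the deposited gene count table listed as H2-Aa, H2-Ab1, H2-Eb1, H2-DMa, Cd74, Ciita, H2-K1, B2m, Cd80 and Cd86, among 34590 rows in all. They were chosen by symbol, with earlier results of these data known, and all 10 passed the filter on low counts. The counts come from 6 libraries of 85-base single-end reads, made from 3 pairs of contralateral mouse mammary glands (gland number 4, the inguinal gland). In each of the host mice 1 to 3, WT.EGFP+ epithelium was grafted on the left and Adamts18-/-.EGFP+ epithelium on the right. Genotype thus cannot be told apart from side. Glands are numbered by their mouse. Hosts of the study's contralateral grafts were WT females, 3 weeks old at surgery, whose own epithelium had been removed, grafts came from 3 different donors, the donor lines were kept on the C57BL/6JOlaHsd background, and both graft genotypes carried EGFP under a chicken β-actin promoter. The age of the host mice at collection was not given in the sources used here, and neither was the time since grafting. Because the host, its donor and the experiment share a number, they cannot be told apart either.

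Antigen presentation shows peptides to T cells. Class I molecules, a heavy chain such as H2-K1 paired with the light chain B2m, are made by nearly all nucleated cells and show peptides from the cytosol to CD8 T cells. Class II molecules, pairs of an alpha and a beta chain held by the invariant chain Cd74 until H2-DM exchanges its remnant for a peptide, are made mainly by dendritic cells, B cells and macrophages, and by epithelium under interferon-gamma. Their genes depend on the coactivator Ciita. Cd80 and Cd86 are the costimulatory ligands of Cd28 and Ctla4 on T cells.

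Total counts were 54059023 to 71595924 in WT glands and 53875123 to 63307129 in Adamts18-/- glands, and at this depth 3 counts correspond to 0.0430 to 0.0574 CPM, counting error only (CPM, counts brought to a library of fixed size after TMM scaling). The labels describe sorted GFP-positive mammary epithelial cells, but defining markers of other cells were present in every library. Epcam, an epithelial marker, was at 83.4 to 180 CPM, the fibroblast marker Col1a1 at 1084 to 1435 CPM, the endothelial marker Pecam1 at 155 to 239 CPM, the leukocyte marker Ptprc at 86.5 to 549 CPM and the macrophage marker Csf1r at 205 to 383 CPM. In bulk RNA a difference in the number of cells of a type and one in RNA per cell cannot be told apart. The glands of mouse 3 stood apart from those of mice 1 and 2, and results are therefore given for each mouse. The targeted gene, Adamts18, was at 6.78 ± 3.15 CPM (SD, n = 3) with WT grafts and at 3.64 ± 1.10 CPM (SD, n = 3) with Adamts18-/- grafts, and was lower on the Adamts18-/- side of every mouse.

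Cd80 and Cd86 were higher in Adamts18-/- glands at the thresholds of the study (a fold change below 0.8 or above its inverse, and an unadjusted p under 0.05), and the other 8 genes did not pass. At these thresholds 2 of 10 genes were higher, against 1.17% of the 17345 genes tested, and 0 of 10 were lower, against 1.84%. Because the 10 genes were chosen with earlier results of these data known, these shares are a description and no test of the set. The median log2 fold change of the 10 genes was 0.066, and that of all tested genes was 0.00065. No member (0 of 10) had an adjusted p under 0.05, in edgeR's quasi-likelihood test blocked by mouse, with Benjamini-Hochberg adjustment over all tested genes, nor with DESeq2 or limma-voom (0 and 0), and 2 had an unadjusted p under 0.05. The smallest adjusted p among members was 0.987. Within each of the 3 mice the contralateral difference had the same sign for 3 of the 10 genes (30.0%, against 23.4% of all tested genes): Cd80, Cd86 and, downwards, B2m. In none of the 10 genes were the 3 glands of one genotype separated from the 3 of the other. The share of all tested genes with such overlap was not computed, so this only describes the values.

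**Figure D1:**
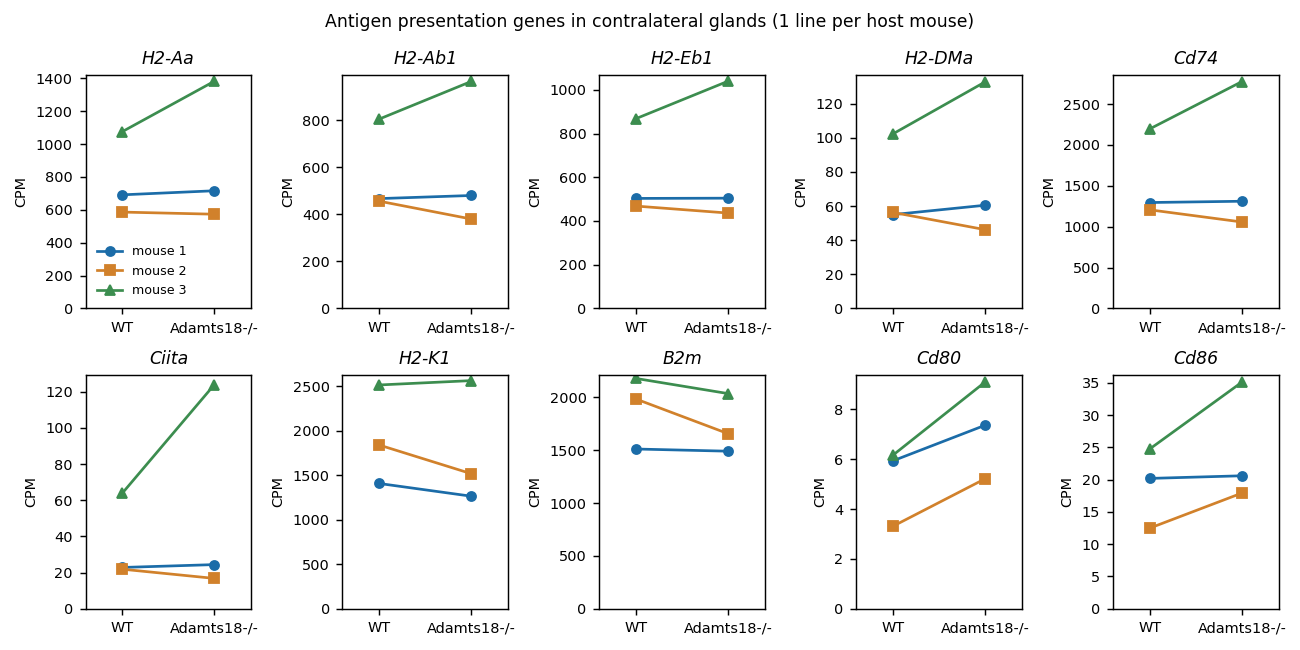
Level of each of the 10 genes in CPM (y axis, from 0) in the WT and the Adamts18-/- gland of each host mouse, 1 line per mouse. In Cd80 and Cd86 all 3 lines go up, that of mouse 1 in Cd86 only from 20.2 to 20.6 CPM. In every gene but Cd80 both glands of mouse 3 lie above all glands of the other mice.

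Per kilobase of exonic sequence, the level was highest for B2m, with a median of 2117 CPM per kb over the 6 glands. Cd74 followed at 776 CPM per kb and H2-K1 at 571 CPM per kb. The class II chains H2-Eb1, H2-Aa and H2-Ab1 were at 259, 185 and 185 CPM per kb, and the last 2 did not differ beyond the spread between glands. H2-DMa was at 16.9 CPM per kb. Cd86, Ciita and Cd80 closed the order at 5.57, 2.48 and 1.63 CPM per kb, so the costimulatory ligands and the coactivator were the scarce members. Cd74 exceeded H2-Aa 4.14 to 4.65 times per kb in the 6 glands, and H2-Aa stood at 0.869 to 1.02 times H2-Ab1. The proportions of these transcripts were thus close to constant while H2-Aa itself ranged from 573 to 1382 CPM. Lengths were those of the merged exons of all annotated transcripts, 3798 bases for H2-Aa, 1944 for H2-Eb1 and 1679 for Cd74. The order and the size of the ratios per kb depend on this choice, and in CPM H2-Aa was above H2-Eb1 in each gland.

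The 3 class II chains lie on chromosome 17 of GRCm38 (GENCODE M21 annotation): H2-Ab1 from 34257689 to 34269419, H2-Aa from 34282744 to 34287823 and H2-Eb1 from 34305867 to 34316674. H2-Aa, the alpha chain of the class II molecule I-A, was at 691, 586 and 1076 CPM in WT glands 1, 2 and 3 and at 716, 573 and 1382 CPM in Adamts18-/- glands 1, 2 and 3. H2-Ab1, the beta chain of I-A, was at 467, 456 and 805 CPM in WT glands and 480, 380 and 966 CPM in Adamts18-/- glands. Both genotypes overlapped, and in each genotype the gland of mouse 3 was the highest. The log2 fold change was 0.13 for H2-Aa (SE, standard error, 0.13, unadjusted p = 0.368) and 0.013 for H2-Ab1 (SE 0.14, unadjusted p = 0.927, edgeR's quasi-likelihood test). H2-Eb1, the beta chain of I-E, was at 503, 468 and 868 CPM in WT glands and 504, 436 and 1040 CPM in Adamts18-/- glands, with a log2 fold change of 0.054 (SE 0.12). Its partner, the I-E alpha chain, is a pseudogene in the C57BL/6J reference. It is listed as H2-Ea-ps with 0, 0 and 1 reads in WT glands and 0, 1 and 2 reads in Adamts18-/- glands, at or under the limit of 3 counts in each.

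The proximal promoters of 2 class II chains are shown as background, because class II genes share a coactivator that acts at such sequences. Whether these sequences bear on the levels in the glands was not tested. Each is the 150 bases before the RefSeq transcript start (GRCm38.p6), written 5′ to 3′ on the strand of the gene. Capitals mark matches, on either strand, to the Y box CTGATTGG, to TGACGTCA (the palindromic form of the X2 box), to GGGNNTTCC (a core of the NF-kB site) and to AANNGAAA (the core bound by interferon regulatory factors).
H2-Aa (chr17:34287824-34287973, minus strand): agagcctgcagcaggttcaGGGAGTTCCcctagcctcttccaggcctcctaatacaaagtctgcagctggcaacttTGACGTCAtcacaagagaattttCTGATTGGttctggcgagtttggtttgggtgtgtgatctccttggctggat
H2-Eb1 (chr17:34305717-34305866, plus strand): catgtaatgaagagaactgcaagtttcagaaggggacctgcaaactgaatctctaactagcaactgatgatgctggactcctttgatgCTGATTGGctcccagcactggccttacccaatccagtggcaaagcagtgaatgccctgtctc
Searched on both strands in windows of 300 bases, of which 50 follow the start, the Y box is found in 4.1% of 32851 RefSeq promoters, TGACGTCA in 1.79%, GGGNNTTCC in 5.82% and AANNGAAA in 23.9%. In H2-Aa the TGACGTCA match begins 74 bases and the Y box 51 bases before the start, with GGGNNTTCC beginning 131 bases before it. In H2-Eb1 the Y box begins 62 bases before the start. For H2-DMa, not shown, the only match was AANNGAAA, on the reverse strand between 25 and 18 bases before the start. A match describes letters only. Promoter sequences were matched for 6 of the 10 genes.

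Cd74, the invariant chain (chromosome 18, 60803848 to 60812652), was the most abundant class II gene, at 1296, 1206 and 2196 CPM in WT glands 1, 2 and 3 and 1311, 1057 and 2775 CPM in Adamts18-/- glands 1, 2 and 3. Its log2 fold change was 0.055 (SE 0.15, unadjusted p = 0.733, edgeR's quasi-likelihood test). Within mice 1, 2 and 3 the difference was 0.017, -0.19 and 0.34. H2-DMa (chromosome 17, 34119541 to 34139101), the alpha chain of the peptide exchanger H2-DM, was at 55.0, 56.2 and 102 CPM in WT glands and 60.4, 46.2 and 133 CPM in Adamts18-/- glands. Its log2 fold change was 0.077 (SE 0.14). Exons of Brd2 on the opposite strand overlap 360 exonic bases of H2-DMa, and whether counting used the strand is not given in the sources used here. Of the 85-base windows of H2-DMa transcripts 7.09% also occur in Brd2, against 0% in another gene for H2-Aa, H2-Ab1, H2-Eb1 and Cd74. In each of the 5 class II genes the value on the Adamts18-/- side was above its contralateral value in mice 1 and 3 and below it in mouse 2. Summed, they gave 3012 against 3072 CPM in mouse 1, 2773 against 2493 CPM in mouse 2 and 5048 against 6295 CPM in mouse 3, WT gland first, so the ratio of Adamts18-/- to WT gland was 1.02, 0.899 and 1.247.

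Ciita, which assembles at class II promoters and drives them, lies on chromosome 16 (10480059 to 10528418), where exons of Dexi on the opposite strand overlap 329 of its exonic bases. It was at 22.8, 21.9 and 63.9 CPM in WT glands 1, 2 and 3 and 24.4, 16.8 and 124 CPM in Adamts18-/- glands 1, 2 and 3. Mouse 3 was set apart more widely than for any other member: its WT gland was 2.86 times and its Adamts18-/- gland 6.02 times the mean of the other mice of that genotype, against 1.68 and 2.14 times for H2-Aa. The log2 fold change of Ciita was 0.23 (SE 0.27, unadjusted p = 0.438, edgeR's quasi-likelihood test). Within mice 1, 2 and 3 the difference was 0.096, -0.38 and 0.96. Without mouse 3 the fitted value was -0.13, and H2-Ab1, H2-Eb1, H2-DMa and Cd74 were then also below 0, between -0.041 and -0.10.

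The class I genes differed from the class II chains in the order of mice 1 and 2. Their fold changes were not tested against those of class II. H2-K1, a classical class I heavy chain (chromosome 17, 33996017 to 34000347), was at 1407, 1839 and 2514 CPM in WT glands 1, 2 and 3 and 1264, 1517 and 2563 CPM in Adamts18-/- glands 1, 2 and 3. B2m (chromosome 2, 122147686 to 122153083) was at 1512, 1985 and 2179 CPM in WT glands and 1491, 1657 and 2036 CPM in Adamts18-/- glands. Here mouse 1 was the lowest and mouse 3 the highest in both genotypes, whereas in the class II chains mouse 2 was the lowest in both. The log2 fold change was -0.13 for H2-K1 (SE 0.13, unadjusted p = 0.347) and -0.13 for B2m (SE 0.12, unadjusted p = 0.358, edgeR's quasi-likelihood test), and scaling to epithelial markers in place of all genes turned both above 0, to 0.35 and 0.36, below the 0.48 by which that scaling moved the median of all tested genes. Without mouse 3 the log2 fold change was -0.21 for H2-K1 and -0.13 for B2m. H2-K1 belongs to a family of similar genes, and 1.95% of its 85-base windows occur in transcripts of other genes, mostly H2-Q10 (1.77%).

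The promoters of H2-K1 and B2m are shown to set class I beside class II, over the same 150 bases and with the same capitals.
H2-K1 (chr17:34000348-34000497, minus strand): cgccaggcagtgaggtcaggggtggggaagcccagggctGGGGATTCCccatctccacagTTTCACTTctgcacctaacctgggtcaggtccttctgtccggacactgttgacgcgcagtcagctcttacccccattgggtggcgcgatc
B2m (chr2:122147537-122147686, plus strand): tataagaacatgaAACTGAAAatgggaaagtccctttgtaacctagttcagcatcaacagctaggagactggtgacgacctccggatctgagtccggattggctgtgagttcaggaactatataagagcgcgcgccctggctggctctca
In H2-K1 GGGNNTTCC begins 111 bases before the start shown, and AANNGAAA lies on the reverse strand between 90 and 83 bases before it. The Y box is found on the reverse strand after that start. Relative to another RefSeq start of H2-K1, GGGNNTTCC begins 125 bases before and AANNGAAA lies between 104 and 97 bases before. There the Y box, on the reverse strand, spans the start, from 6 bases before it. In B2m AANNGAAA begins 137 bases before the start.

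The costimulatory ligands were low, and their values were higher in the Adamts18-/- gland of each mouse. Cd80, or B7-1 (chromosome 16, 38455561 to 38496335), was at 5.94, 3.31 and 6.16 CPM in WT glands 1, 2 and 3, which are 414, 203 and 347 reads. In Adamts18-/- glands 1, 2 and 3 it was at 7.36, 5.21 and 9.09 CPM, or 385, 316 and 559 reads. The genotypes overlapped because the WT glands of mice 1 and 3 were above the Adamts18-/- gland of mouse 2, yet each Adamts18-/- gland was above its own contralateral gland. The log2 fold change was 0.51 (SE 0.14, unadjusted p = 0.0178, adjusted p = 0.987, edgeR's quasi-likelihood test). Within mice 1, 2 and 3 the difference was 0.31, 0.65 and 0.56. Without the mouse as a block its unadjusted p was 0.179. Cd86, or B7-2 (chromosome 16, 36603869 to 36666081), was at 20.2, 12.5 and 24.8 CPM in WT glands and 20.6, 17.9 and 35.1 CPM in Adamts18-/- glands of mice 1, 2 and 3. In mouse 1 the glands were nearly equal, with a log2 difference of 0.029, against 0.52 and 0.50 in mice 2 and 3. The fitted log2 fold change of Cd86 was 0.35 (SE 0.13, unadjusted p = 0.0463, adjusted p = 0.987, edgeR's quasi-likelihood test), and its unadjusted p was 0.348 without the block. Over the alternatives the adjusted p lay between 0.0738 and 1.0 for Cd80 and between 0.105 and 1.0 for Cd86.

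Leaving out a mouse took the p of Cd80 above the threshold without mouse 1 (unadjusted p = 0.0512) and without mouse 2 (unadjusted p = 0.0806), and that of Cd86 without mouse 2 (unadjusted p = 0.196) and without mouse 3 (unadjusted p = 0.113, edgeR's quasi-likelihood test). Without mouse 2 neither was called. Per kilobase, Cd86 exceeded Cd80 2.83 to 4.06 times in the 6 glands.

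**Figure D2:**
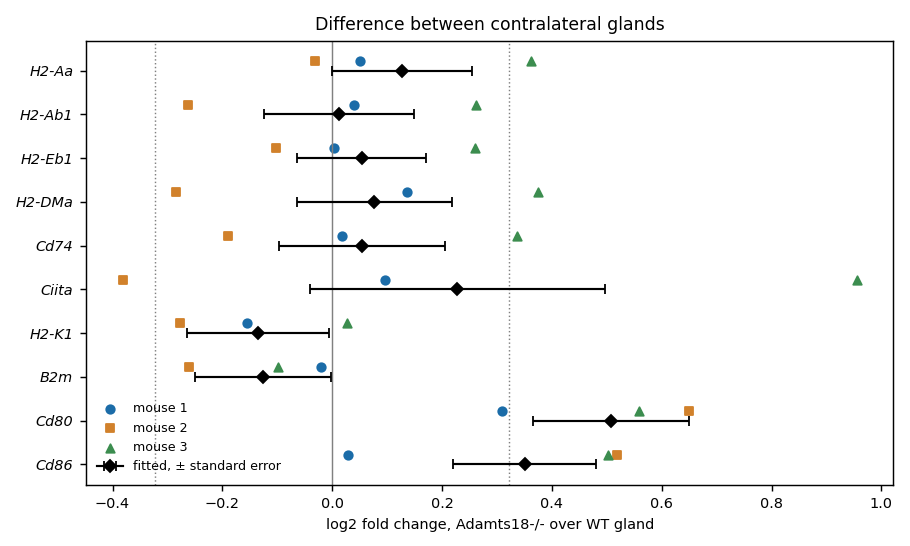
Log2 fold change of each gene, Adamts18-/- over WT gland (x axis), as the difference within each host mouse (coloured points) and as the fitted value with its SE (black diamonds and bars). Dotted lines mark a fold change of 0.8 and its inverse. The fitted values of Cd80 and Cd86 lie beyond the upper line, while the points of mice 2 and 3 fall on opposite sides of 0 for the class II genes and Ciita.

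More of the members passed a test between mice than between genotypes. In a test of any difference among the 3 mice in the same edgeR fit, added after the values were seen, 9 of the 10 genes had an unadjusted p under 0.05, against 27.2% of all tested genes. B2m was the exception (unadjusted p = 0.0657, edgeR's quasi-likelihood test). By adjusted p under 0.05, 0 of 10 passed, against 0.628% of all tested genes, and the smallest adjusted p among members was 0.0592, for H2-Eb1. Scaled to epithelial markers 1 of 10 passed, Ciita, against 9.93% of all tested genes, and without the filter on low counts 6 of 10 passed, against 4.50%. Both glands of mouse 3 were above the other 4 glands in 9 of 10 members, all but Cd80, against 24.2% of all tested genes. Between pairs of the 5 class II genes the correlation of log2 CPM over the 6 glands was 0.984 to 0.998, a description over 6 points that share hosts and libraries.

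Among 14700 other genes with a mean of at least 1 CPM, those whose log2 CPM over the 6 glands was most like the mean of the 5 class II genes were Fancg (r = 0.9996), Rpl36al, H2-DMb1, Cbx8 and Haus8 (r = 0.998). H2-DMb1, which encodes the beta chain of H2-DM, was the only one of them from the antigen presentation lists, at 38.0 to 89.9 CPM. The genes most like the mean of H2-K1 and B2m were Igkv5-39 (r = 0.997), Cysltr2, Igkv8-24, Apol10b and H2-Q4 (r = 0.994). Igkv5-39 and Igkv8-24 are immunoglobulin light chain segments, whose reads may be shared with similar segments, and H2-Q4 is a class I gene. These values describe 6 glands of 3 mice.

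The other genes of the pathway were taken as 6 lists with 78 genes in the table, of which 73 passed the filter. At the thresholds of the study 0 of the 73 were higher (against 1.17% of all tested genes) and 0 were lower (against 1.84%), 0 had an unadjusted p under 0.05, and 0 had an adjusted p under 0.05 (edgeR's quasi-likelihood test). Their median log2 fold change was 0.044. With limma-voom 3 of them, Cd40, H2-Eb2 and H2-Ob, were higher at the same thresholds, against 1.99% of all tested genes in that fit. Of these 73 genes, 56 had an unadjusted p under 0.05 for a difference between mice (against 27.2% of all tested genes), and 7 an adjusted p under 0.05 (against 0.628%), H2-Q10, H2-M3, Psmb9, Nlrc5, Cd274 and Pdcd1 among them.

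The list of class I heavy chains and class I-like genes had a median log2 fold change of -0.10 over 15 tested genes. Its most abundant genes were the classical heavy chain H2-D1 (1893 ± 202 CPM with WT and 1746 ± 269 CPM with Adamts18-/- grafts, mean and SD, n = 3 each, log2 fold change -0.12) and H2-Q7, a nonclassical class I gene (log2 fold change -0.14). In class I peptide supply and loading, 13 genes had a median of 0.025, with 0.026 for the chaperone Calr and 0.054 for the disulfide isomerase Pdia3. The class II list, 9 tested genes, had a median of 0.14. Its most abundant genes, the lysosomal proteases Ctsl and Ctss, which degrade the invariant chain, had log2 fold changes of -0.019 and 0.11. The MHC transcription factors had a median of 0.039 over 13 genes, with -0.035 for Nlrc5, the coactivator of class I genes.

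The costimulatory and coinhibitory ligands had a median of 0.11 over 11 genes, with 0.018 for Lgals9 and 0.040 for the adhesion ligand Icam1. Cd40, which activated antigen-presenting cells carry, was at 5.53, 2.38 and 10.99 CPM in WT glands 1, 2 and 3 and 5.70, 3.23 and 21.7 CPM in Adamts18-/- glands 1, 2 and 3, and did not pass (unadjusted p = 0.0736, edgeR's quasi-likelihood test). On the T cell side, 12 genes had a median of 0.19, with 0.27 for Cd4 and 0.19 for the integrin Itgal. Of the receptors of Cd80 and Cd86, Cd28 was at a log2 fold change of 0.42 (SE 0.25) and Ctla4 at 0.13 (SE 0.21), and neither passed.

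**Figure D3:**
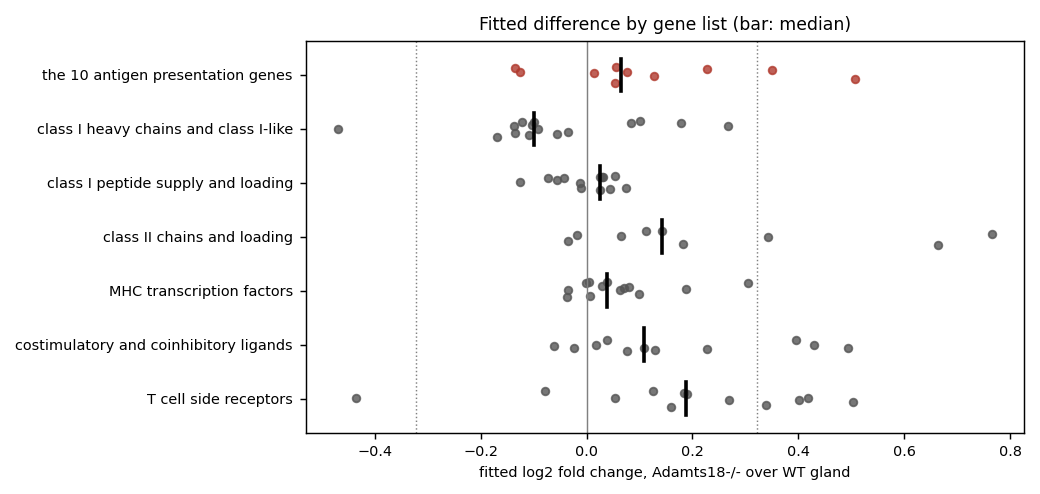
Fitted log2 fold change, Adamts18-/- over WT gland (x axis), of the 10 genes and of the tested genes in 6 lists of the pathway (1 point per gene, bar at the median, dotted lines at a fold change of 0.8 and its inverse). Points beyond a dotted line other than Cd80 and Cd86 did not pass the p threshold.

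Some class II genes outside the 10 members stood far apart in mouse 3, and were named after their values were seen. H2-Ob, a chain of H2-DO, which restrains H2-DM mainly in B cells, was at 7.54, 5.68 and 28.4 CPM in WT glands 1, 2 and 3 and 7.73, 5.89 and 128 CPM in Adamts18-/- glands 1, 2 and 3. H2-Oa, its partner, was at 10.9 CPM in the WT and 29.9 CPM in the Adamts18-/- gland of mouse 3 and between 2.15 and 3.60 CPM in the other 4 glands. H2-DMb2, the second beta chain gene of H2-DM, was at 34.3 and 92.2 CPM in mouse 3 and between 9.31 and 12.6 CPM elsewhere. In mouse 3 the genes of H2-DO thus differed more between the contralateral glands than did the class II chains themselves.

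Markers of leukocytes differed along with these genes in mouse 3. The summed level of 10 pan-leukocyte markers was 2.23 times as high in the Adamts18-/- as in the WT gland of mouse 3, with 1.03 and 0.966 times in mice 1 and 2. For 12 B cell markers the ratio was 3.87 in mouse 3 (270 against 1046 CPM) and 0.937 and 1.05 in mice 1 and 2, and for 12 T cell markers it was 2.31 in mouse 3 and 0.957 and 0.955. Ebf1 and Thy1 made up much of these sums in mice 1 and 2. Without them, sums chosen after seeing the data, the ratios in mice 1, 2 and 3 were 0.831, 0.866 and 5.31 for B cell markers and 0.845, 0.685 and 2.82 for T cell markers. In mouse 1 and in mouse 2, 10 of 12 B cell and 11 of 12 T cell markers were lower in the Adamts18-/- gland. Ms4a1, a B cell marker, was at 1.12 to 2.35 CPM in mice 1 and 2 and at 22.2 and 108 CPM in mouse 3, WT gland first, and the T cell marker Cd3e was at 3.08 to 9.51 CPM in mice 1 and 2 and at 21.3 and 56.2 CPM. As background, the inguinal mammary fat pad holds a lymph node, rich in such cells. Whether the node was part of these samples is not given in the sources used here. The part of B and T cell RNA in the levels of the class II genes and Ciita in mouse 3 was not tested.

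Macrophage markers differed the other way in mouse 3. There 11 of the 12 were lower in the Adamts18-/- gland, with log2 differences of -0.96 to -0.14, and the most abundant of them, Lyz2, was higher (1165 against 1407 CPM). Their sum in the Adamts18-/- gland was 1.04, 1.15 and 0.952 times that in the WT gland of mice 1, 2 and 3, and 0.997, 1.17 and 0.777 times without Lyz2. In mouse 2 all 12 were higher. Adgre1, listed as Emr1, was at 44.6 to 78.2 CPM. For 12 dendritic cell markers the ratio of the sums was 1.03, 1.09 and 1.45, and 1.03, 0.950 and 2.01 without the most abundant, Clec10a. Flt3 was at 5.71 to 28.1 CPM and Itgax at 16.3 to 55.8 CPM. None of the markers in these lists was at 0 in all 6 glands (0 in each list), and none of the leukocyte markers passed the thresholds of the study (0 of 10, 12, 12, 12 and 12). Of all tested genes 1.84% were lower and 1.17% higher at these thresholds, so these counts are no result about the lists.

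Set against these sums within each gland, the sign for the costimulatory ligands in mouse 3 depended on the markers used. Relative to the macrophage markers, Cd80 had log2 differences of 0.26, 0.46 and 0.63 between the contralateral glands of mice 1, 2 and 3, and of 0.32, 0.43 and 0.93 with Lyz2 left out of the sum. Relative to the dendritic cell markers they were 0.26, 0.53 and 0.026, with -0.45 in mouse 3 when Clec10a was left out. In mouse 3 the difference for Cd80 was -0.60 relative to the pan-leukocyte markers and -1.39 relative to the B cell markers, while mice 1 and 2 stayed above 0 against both.

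For Cd86 the log2 differences were -0.021, 0.32 and 0.57 relative to macrophage markers and -0.021, 0.40 and -0.033 relative to dendritic cell markers. With Lyz2 left out of the macrophage sum they were 0.033, 0.29 and 0.87. With Clec10a left out of the dendritic cell sum they were -0.015, 0.59 and -0.51. Relative to pan-leukocyte markers they were -0.020, 0.57 and -0.66, and relative to B cell markers Cd86 was at -1.45 in mouse 3. Cd74 relative to pan-leukocyte markers gave -0.031, -0.14 and -0.82. Both ligands were thus higher per macrophage marker and lower per pan-leukocyte or B cell marker in the Adamts18-/- gland of mouse 3.

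**Figure D4:**
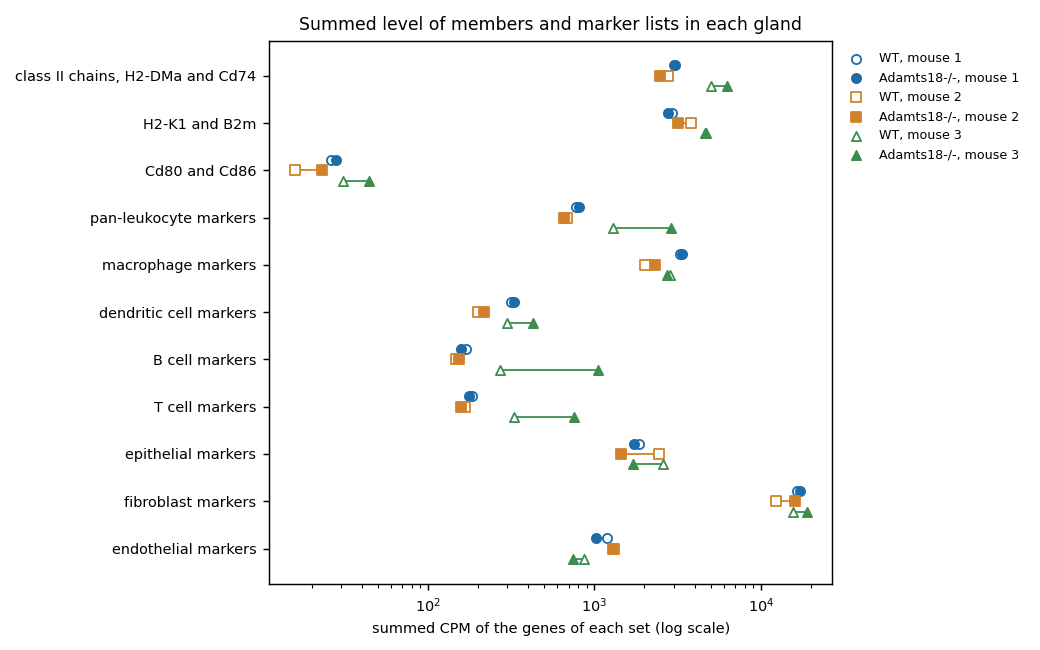
Summed CPM (x axis, log scale) of the class II genes, of H2-K1 with B2m, of Cd80 with Cd86 and of 8 marker lists, with open symbols for WT and filled symbols for Adamts18-/- glands, joined within each host mouse. The B cell markers of mouse 3 span 270 to 1046 CPM, while the sum of the macrophage markers of the same mouse differs by a ratio of 0.952, which hides that 11 of the 12 were lower.

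Most epithelial markers were lower on the Adamts18-/- side in mice 2 and 3, but not in mouse 1. Of 24 epithelial markers, 10 were lower in Adamts18-/- glands at the thresholds of the study (against 1.84% of all tested genes) and 0 were higher (against 1.17%). Their median log2 fold change was -0.41, and their summed level was 0.933, 0.595 and 0.661 times that of the WT gland in mice 1, 2 and 3. Without the most abundant, Krt19, the ratios were 0.979, 0.601 and 0.665. In mouse 1, 15 of the 24 were higher in the Adamts18-/- gland and 9 lower, whereas 24 were lower in mouse 2 and 23 in mouse 3. Fibroblast markers had a median of 0.077 and endothelial markers one of -0.17, with 0 of 12 genes past the thresholds in each. At such low shares over all tested genes, 0 of 12 is no result about these lists. With the libraries scaled to the epithelial markers, all tested genes shifted by 0.48 at the median. Relative to this shift Cd80 was at 0.51 and Cd86 at 0.35, as in the main fit. Scaling moves all genes of a library alike, so these values were bound to stay near those of the main fit. They say nothing about the mix of cells. With that scaling 3 of the 10 genes were higher at the thresholds of the study, Ciita being added (log2 fold change 0.70, unadjusted p = 0.0204, edgeR's quasi-likelihood test), against 18.4% of all tested genes. The summed level of Cd80 and Cd86 was 1.07, 1.46 and 1.43 times as high in the Adamts18-/- gland in mice 1, 2 and 3. In mouse 1 the ratio was 1.24 for Cd80 and 1.02 for the more abundant Cd86. The part of the difference in epithelial markers in the result for Cd80 and Cd86 was not tested.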

How the data were processed

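The table that the authors deposited gives raw counts, whole numbers of reads on each gene symbol, with a column for each of the 6 glands (0 columns of other samples). The submitters' processing notes name bcl2fastq 2.18, TopHat2 2.0.11, featureCounts 1.6.2, edgeR and the build mm9. The annotation and the strand setting are not given in the sources used here. Coordinates, exonic lengths and transcripts are those of GENCODE M21 on GRCm38, matched by symbol, so they describe another build than the one the reads were mapped to. Samples were grouped by the genotype, mouse number and side in their titles.

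The test was edgeR's (version 4.0.16, in R 4.3.3): default filter on low counts, TMM scaling, and the quasi-likelihood test with genotype and a block for each mouse, with Benjamini-Hochberg adjustment over all 17345 genes kept. The block follows the contralateral design. Deviations of contralateral glands from their genotype's mean correlated across genes (0.512, 0.505 and 0.639 in mice 1, 2 and 3). In mice 1 and 2 this cannot show pairing, because mouse 3, apart in both genotypes, moves both means alike. By chi-square of the counts per degree of freedom, glands 1 and 2 were closer within a genotype (WT 57.1, Adamts18-/- 34.1) than contralaterally (76.9 and 82.1). The glands of mouse 3 were closest to each other (81.6). For log2 CPM the prior count was 2. The script was tested on simulated data. P-values of the blocked genotype test measure the spread between these 3 pairs, with dispersions moderated across genes. Those without the block measure the spread between glands. The test between mice sets their differences against the spread left after genotype and mouse.

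As alternatives, the block was dropped, DESeq2 1.42.0 or limma-voom (limma 3.58.1) replaced edgeR, scaling was by RLE, upper quartile, library size or epithelial markers, the filter was dropped or set to 10 counts per library, mice were left out singly, and the fold threshold was dropped. The members and lists were chosen with earlier results of these data known. Named genes are all members, of each pathway list the genes past the thresholds and the 2 most abundant, the defining markers, and the 5 genes most like each of 2 mean profiles. Cd40, Cd28, Ctla4, H2-Ob, H2-Oa, H2-DMb2 and H2-Ea-ps and the genes that differed between mice were named after their values were seen. H2-L, H2-T9, March1 and March8 were not matched in the table and are not analysed here. Some genes that this rule selects are not reported here, but they stayed in the fits, lists and sums.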

Additional observations from a re-analysis of the deposited data

How the results depend on the processing

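In the test of genotype no member passed an adjusted p under 0.05 in any alternative run. The 2 members higher at the thresholds of the study became 0 without the mouse as a replicate block, 1 with library size scaling, 0 to 1 with a mouse left out, and 3 with scaling to epithelial markers (Ciita added). Among the other pathway genes, with 0 lower and 0 higher, limma-voom gave 3 higher, and leaving out a mouse gave 0 to 2 lower and 0 to 2 higher. Scaling to epithelial markers, whose sum was lower in the Adamts18-/- gland of each mouse, gave 23 higher and raised the median of the members to 0.55. With it the calls over all tested genes changed from 319 lower and 203 higher to 25 lower and 3195 higher. It also turned H2-K1 to 0.35 and B2m to 0.36. The median of the members lay between -0.072 and 0.19 with a mouse left out. H2-Ab1, near 0, turned negative with limma-voom (-0.00041), library size scaling (-0.012), without mouse 1 (-0.0015) and without mouse 3 (-0.10). With a mouse left out H2-Ab1 ranged to 0.15, H2-Eb1 from -0.041 to 0.13, H2-DMa from -0.066 to 0.26, Cd74 from -0.078 to 0.18 and Ciita from -0.13 to 0.53, in each case lowest without mouse 3 and highest without mouse 2. The causes were not tested. The count of members that differ between mice by adjusted p, 0 in the main test, was 1 with epithelial scaling (Ciita, against 9.93% of all tested genes) and 6 without a filter on low counts (against 4.50%, and 0.628% in the main test), alternatives chosen after seeing the data. Cd80, at 203 to 559 reads a gland, is limited in depth more than the other members.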
